A study of Tachysurus fulvidraco x Tachysurus vachelli with 6 samples.

Results

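The genes described here belong to the growth hormone, insulin-like growth factor (IGF) and insulin axis of the fish liver. They are the rows of the deposited gene table whose description contains insulin-like growth factor, growth hormone receptor, somatotropin, insulin receptor, suppressor of cytokine signaling or growth factor receptor-bound protein, and 54 of the 28288 rows fulfilled this condition. No row with somatotropin (growth hormone) in its description was among them. The livers came from hybrid yellow catfish (Tachysurus fulvidraco female × Pseudobagrus vachellii male). T_liver fish had eaten a diet with 4 g/kg Acanthopanax senticosus (Siberian ginseng powder) for 56 days, and C_liver fish had eaten the same basal diet with 0 g/kg for the same time. Each group was measured in 3 RNA-seq libraries. The fish were starved before sampling and RNA of several fish was mixed before the libraries were made. The number of fish per library is not given in the sources used here. Fish of each diet were kept in 3 replicate tanks. Whether each library came from its own tank, or the libraries of a group shared a pool, is not given either. P values therefore measure the spread between libraries, which may not be independent biological replicates. Reads of the hybrid were aligned to the genome of its maternal species.

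Growth hormone from the pituitary binds its receptor on hepatocytes, and the signal, carried by the kinase JAK2 and the transcription factor STAT5, raises transcription of IGF-I, the main circulating growth signal of vertebrates. In blood, IGFs travel bound to IGF-binding proteins (IGFBPs) and the acid labile subunit, which set how much hormone is free. Insulin acts on the same tissue through the insulin receptor and its docking proteins, the insulin receptor substrates, and in mammalian liver it lowers transcription of IGFBP1, IRS2 and glucose-6-phosphatase through FoxO factors. SOCS proteins and the adaptors GRB10 and GRB14 damp these receptors.

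Of the 54 genes, 49 had a count in at least 1 library, and 32 reached the mean of 1 FPKM (fragments per kilobase of transcript, scaled to the mapped reads) over the 6 libraries that was required for testing, as did 11521 genes of the whole table. A gene was called a DE gene where its log2 fold change was 1 or more in either direction with P under 0.05 before adjustment, by edgeR's quasi-likelihood test. DE genes higher in T_liver were 3 of the 32 (9.38%, against 1.49% of all tested genes): an IGFBP1 gene, an IRS2 gene and igf2bp2. The last, an mRNA-binding protein outside the receptor cascade, reached the FPKM minimum only through T_liver (mean 2.02 FPKM, against 0.805 FPKM in C_liver). No gene of the axis was a DE gene lower in T_liver (against 1.61% of all tested genes). In counts scaled by the TMM method, the 3 T_liver libraries all lay above the 3 C_liver libraries in 5 of the 32 genes (15.6%), and all below in none. On the same scale 13.1% of all tested genes were separated in either direction. The 2 shares are close, so the number of separated genes is not read as a result about the axis. The median log2 fold change of the 32 genes was 0.02, with 17 positive and 15 negative values. With Benjamini-Hochberg adjustment in edgeR's quasi-likelihood test 0 genes of the whole table were under 0.05, where the smallest adjusted P was 0.273 and 765 genes had an unadjusted P under 0.05, while DESeq2 gave 38 genes and edgeR's exact test 14. Single genes were also compared by the exact 2-sided permutation test, which cannot go below p = 0.1 with 3 libraries against 3.

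Total counts were between 44153673 and 51459627 per library. C_liver 3 stood apart from the other 5 on the first principal component, its 20 most abundant genes took 32.9% of its counts (25.3% to 27.2% in the others), and it held the lowest level of 11 of the 32 genes. The share of all tested genes with their lowest level there was not counted, so this number is not read as a result about the axis. Without C_liver 3, 4 of the 32 genes and 248 of all genes were DE genes, against 3 and 358 with it. All 16 hepatocyte markers were tested, and their summed level was 73514 to 113956 CPM (a gene's count per 1e+06 counts of its library, scaled by the TMM method) in T_liver and 79464 to 116109 CPM in C_liver. Transcripts of exocrine pancreas, a tissue that lies within or against the liver of many bony fish, were higher in T_liver, with 16 of 21 tested markers DE genes and all 21 fold changes positive. Their summed level separated the groups, at 1130, 362 and 855 CPM in T_liver 1 to 3, against 96.2, 75.5 and 301 CPM in C_liver 1 to 3. Endocrine pancreas markers were close to 0, at 1.66, 0 and 0 CPM in T_liver and 0.377, 0.239 and 0.687 CPM in C_liver. Red blood cell and fibroblast markers held 0 DE genes of 10 and 5 tested, and leukocyte markers 1 of 6 (csf1r, lower in T_liver), while 0 skeletal muscle markers reached the minimum. C_liver 3 also held the highest sums of red blood cell and fibroblast markers. Red blood cell markers summed to 1124, 2836 and 455 CPM in T_liver, against 810, 863 and 4425 CPM in C_liver, and fibroblast markers to 478, 405 and 664 CPM in T_liver, against 448, 456 and 877 CPM in C_liver. The next highest library was T_liver 2 for red blood cell markers and T_liver 3 for fibroblast markers. The part of these markers in the low levels of genes of the axis in C_liver 3 was not tested. In RNA of whole tissue, fewer cells of a type and less RNA per cell cannot be told apart.

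Levels spanned a wide range between the products of the axis. Compared per transcript length in FPKM, igfals, the gene of the acid labile subunit, was the most abundant with a mean of 383 FPKM over the 6 libraries, rank 228 of all genes. IGFBP2-B (LOC113654375) followed with 209 FPKM and rank 334. The growth hormone receptor, with its 2 rows summed, averaged 58.8 FPKM and IGFBP1, also 2 rows, 53.1 FPKM. IRS2 (4 rows) reached 16.7 FPKM, the insulin receptor 14.5 FPKM and IGF-II 6.56 FPKM, while IGF-I averaged 1.36 FPKM and the IGF-I receptor 0.144 FPKM. Receptors for growth hormone and insulin were thus present at moderate levels, and transcripts of IGF-I and its receptor were scarce in these livers.

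**Figure D1:**
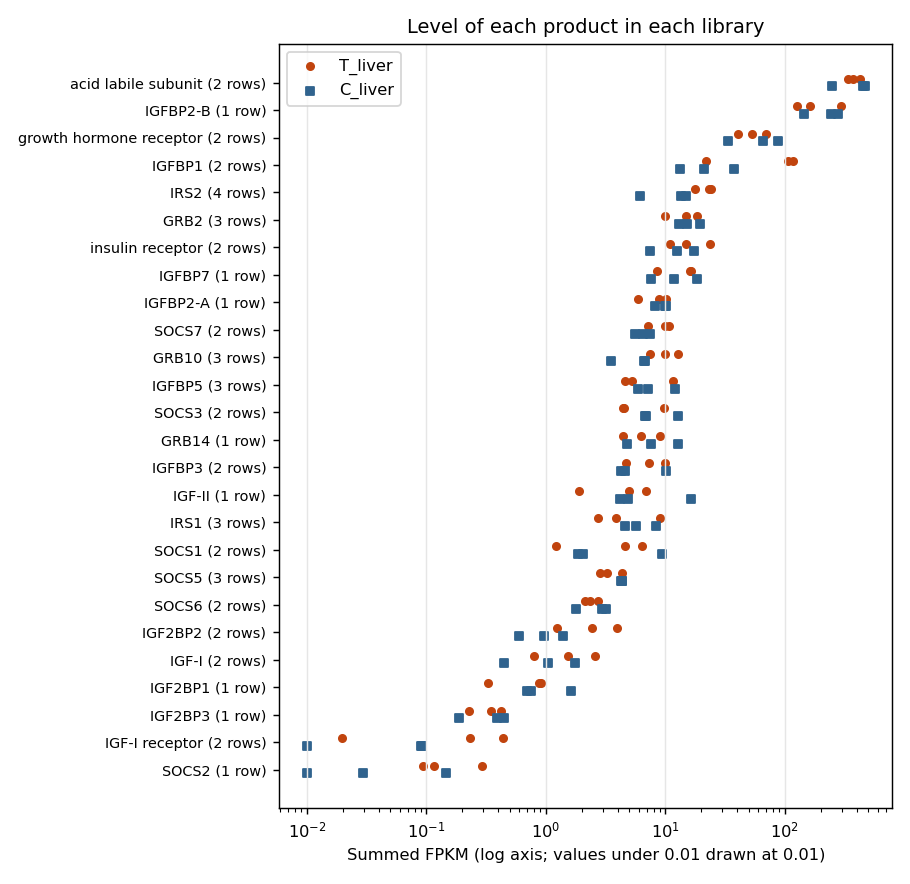
FPKM of each product of the axis in the 6 libraries (x axis, log scale; rows of a product summed, values under 0.01 drawn at 0.01), with products ordered by their mean (y axis). Orange circles are the 3 T_liver libraries and blue squares the 3 C_liver libraries. The colours overlap in all products except IRS2 and GRB10, from the acid labile subunit near 385 FPKM to SOCS2 at 0.113 FPKM. GRB10 is drawn as the sum of 3 rows, and its tested row LOC113641272 alone overlaps between groups in FPKM.

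Of the ligands only IGF-II reached the FPKM minimum. IGF-II (LOC113660163), a growth factor that fish livers also make after hatching, had 4.00, 10.8 and 12.2 CPM in T_liver, against 7.57, 30.9 and 11.4 CPM in C_liver. The groups overlapped and C_liver 2 alone was high. Its log2 fold change was -0.88 (SE 0.61, unadjusted P = 0.19 in edgeR's quasi-likelihood test), and it was -0.07 without C_liver 2. Both IGF-I rows were below the FPKM minimum. The row igf1 had 203, 44 and 142 counts in T_liver, against 210, 130 and 364 counts in C_liver, which overlapped. The other IGF-I row, LOC113642632, had 54, 55 and 171 counts in T_liver, against 24, 0 and 28 counts in C_liver. Here every T_liver library was above every C_liver library, but the fit without a minimum gave a log2 fold change of 2.29 with an SE of 1.24 (unadjusted P = 0.0985 in edgeR's quasi-likelihood test). The fold changes of the 2 rows had opposite signs (-0.88 for igf1, SE 0.66), and with their counts summed IGF-I had a log2 fold change of -0.23 (SE 0.60).

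None of the 4 tested receptor genes was a DE gene, and the largest log2 fold change was 0.43. The main growth hormone receptor row, LOC113638618, had 103, 139 and 142 CPM in T_liver, against 142, 216 and 91.2 CPM in C_liver (log2 fold change -0.23, SE 0.36). The second row, LOC113658550, had 10.2, 14.6 and 17.4 CPM in T_liver, against 15.1, 12.7 and 10.9 CPM in C_liver (0.13, SE 0.28). The T_liver values lay within those of C_liver in the first row and around them in the second. Both insulin receptor rows had positive log2 fold changes and overlapping groups. LOC113647079 had 84.2, 59.7 and 118 CPM in T_liver, against 59.4, 87.8 and 47.4 CPM in C_liver (0.43, SE 0.35). LOC113650213 had 40.7, 40.7 and 46.6 CPM in T_liver, against 32.9, 44.4 and 21.5 CPM in C_liver (0.37, SE 0.30), and only C_liver 2 reached the T_liver values. The IGF-I receptor gene igf1r was patchy, with 0, 112 and 208 counts in T_liver and 36, 41 and 0 counts in C_liver, and the other receptor row, LOC113653192, had at most 12 counts in any library.

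The binding proteins held the largest fold change of the axis. IGFBP1, in mammals an insulin-repressed protein that sequesters IGFs during fasting, was represented by 2 genes on different scaffolds. LOC113662304 (NW_020848087.1, 630174 to 635539, minus strand, in the coordinates of the deposited table) had 184, 199 and 31.8 CPM in T_liver, against 8.26, 33.2 and 2.75 CPM in C_liver. T_liver 1 and 2 were far above all others, but T_liver 3 lay just below C_liver 2, so the groups overlapped. The mean was 139 ± 92.7 CPM in T_liver and 14.7 ± 16.2 CPM in C_liver (SD, n = 3 each). The log2 fold change of 3.23 (SE 1.03) ranked 30 of the 11521 tested genes and had P = 0.016 (0.676 after adjustment) in edgeR's quasi-likelihood test, and the exact permutation test gave p = 0.2. DESeq2 gave an adjusted P of 0.0159, the lowest of all alternatives (up to 0.946). Without C_liver 1 the gene was no longer a DE gene (2.94, unadjusted P = 0.052 in edgeR's quasi-likelihood test), and without C_liver 2 the log2 fold change was 4.65.

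The second IGFBP1 gene, LOC113664030 (NW_020848124.1, 1010933 to 1013934, minus strand), had 104, 71.4 and 13.3 CPM in T_liver, against 18.5, 13.1 and 93.4 CPM in C_liver. T_liver 1 and 2 were again high and T_liver 3 low, but C_liver 3 lay between T_liver 1 and T_liver 2, and the log2 fold change was 0.59 (SE 0.91). Without C_liver 3 it was 1.99, a DE gene (unadjusted P = 0.0496 in edgeR's quasi-likelihood test). With other single libraries omitted the log2 fold change of this gene fell as low as 0.025. Pancreatic markers summed to 1130, 362 and 855 CPM in T_liver 1 to 3 and to 96.2, 75.5 and 301 CPM in C_liver 1 to 3. T_liver 1 was thus high in these markers and in both IGFBP1 genes, T_liver 2 was high in both genes with the fewest markers of its group, and T_liver 3 was low in both genes with many markers. C_liver 3 had the most markers of its group and its highest level of LOC113664030, but its lowest of LOC113662304. The part of the markers in these levels was not tested.

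**Figure D2:**
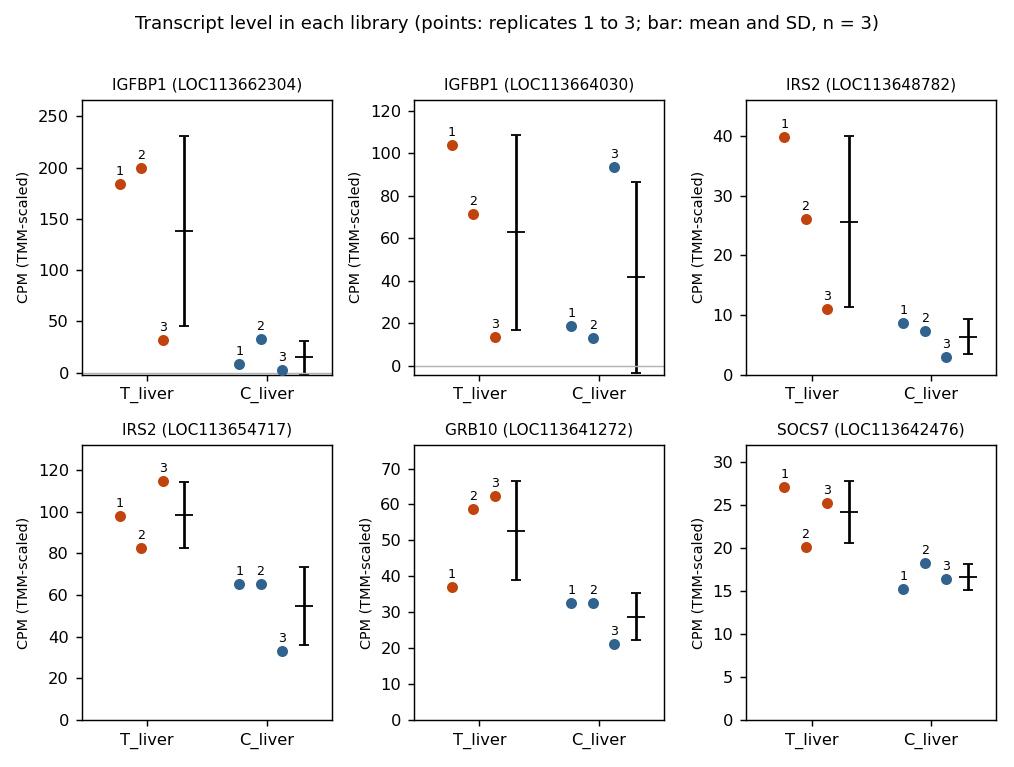
TMM-scaled CPM (y axis, linear) of 6 genes in each library, T_liver left in orange and C_liver right in blue. Numbers beside the points are the replicates, and the bars give mean and SD (n = 3). T_liver 3 lies below C_liver 2 in the first IGFBP1 gene, C_liver 3 is high in the second, and the 3 T_liver points lie above the 3 C_liver points in the IRS2, GRB10 and SOCS7 panels.

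Each IGFBP1 gene lies tail to tail with an IGFBP3 gene, with no gene between them. IGFBP3 carries IGFs in the ternary complex with the acid labile subunit. The LOC113662304 model overlaps the end of its IGFBP3 neighbour LOC113662305 on the other strand by 754 bp, and whether the counting used strand is not given in the sources used here. The neighbour stayed between 13.3 and 32.4 CPM in all libraries, with 27.9, 16.4 and 28.8 CPM in T_liver and 13.3, 32.4 and 20.1 CPM in C_liver (log2 fold change 0.15, SE 0.38). The part of the overlap in the counts of either gene was not tested. The other IGFBP3 gene, LOC113664019, had 4.65, 5.03 and 8.32 CPM in T_liver, against 2.81, 7.38 and 2.29 CPM in C_liver. C_liver 2 lay within the T_liver range. The log2 fold change of this gene was 0.53 (SE 0.51), and without C_liver 2 it was a DE gene at 1.23. With other single libraries omitted the log2 fold change fell as low as 0.22.

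IGFBP2 and IGFBP5 genes form the same kind of pair on 2 further scaffolds. IGFBP2-B had 613, 485 and 937 CPM in T_liver, against 778, 925 and 603 CPM in C_liver (log2 fold change -0.18, SE 0.34), so that both groups covered nearly the same range. IGFBP2-A (igfbp2), the less abundant copy, had 16.9, 11.8 and 16.2 CPM in T_liver, against 16.6, 13.99 and 21.2 CPM in C_liver (-0.21, SE 0.26). IGFBP5 LOC113654419 had 11.6, 23.2 and 39.1 CPM in T_liver, against 20.1, 48.4 and 13.5 CPM in C_liver (-0.15, SE 0.58). None of these groups separated. IGFBP5 LOC113634474 had 4.14, 2.08 and 4.25 CPM in T_liver, against 4.10, 3.29 and 6.85 CPM in C_liver (-0.44, SE 0.43). IGFBP7, a relative with weak IGF affinity, had 24.8, 13.5 and 21.3 CPM in T_liver, against 10.1, 16.2 and 31.6 CPM in C_liver (0.04, SE 0.45). The last IGFBP5 row (LOC113662014) and both IGFBP6 rows (igfbp6 and LOC113641834) had no count in any library.

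The acid labile subunit gene igfals, which the liver secretes under growth hormone control in mammals, had 909, 1070 and 680 CPM in T_liver, against 968, 974 and 659 CPM in C_liver (log2 fold change 0.03, SE 0.30). Replicate 3 was the lowest of both groups. A second row with this description, LOC113643405, varied widely within both groups (log2 fold change -0.19, SE 1.59). It had 0, 10.5 and 12.0 CPM in T_liver and 0.339, 14.1 and 11.3 CPM in C_liver, so that replicate 1 was at or near 0 in both groups.

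Among the insulin receptor substrates, IRS2, the docking protein that in mouse liver carries the metabolic insulin signal with IRS1, had 2 genes whose libraries separated between the diets. LOC113648782 (NW_020847857.1, 6609803 to 6620714, minus strand) had 39.7, 26.1 and 11.02 CPM in T_liver, against 8.62, 7.32 and 3.00 CPM in C_liver. Every T_liver library exceeded every C_liver library, with T_liver 3 closest. The mean was 25.6 ± 14.4 CPM in T_liver and 6.32 ± 2.94 CPM in C_liver (SD, n = 3 each). The log2 fold change was 2.02 (SE 0.56, unadjusted P = 0.008, 0.676 after adjustment, edgeR's quasi-likelihood test). The exact permutation test gave its smallest p, 0.1, and DESeq2 gave an adjusted P of 0.0485, the lowest of all alternatives (up to 0.946). The gene stayed a DE gene when any single library was left out, with log2 fold changes of 1.56 to 2.38.

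The other of these genes was more abundant. LOC113654717 (NW_020847961.1, 192050 to 208826, minus strand) had 98.0, 82.6 and 115 CPM in T_liver, against 65.2, 65.3 and 32.9 CPM in C_liver. Its log2 fold change was 0.85 (SE 0.33, unadjusted P = 0.035, 0.676 after adjustment, edgeR's quasi-likelihood test), below the fold required of a DE gene, which it passed at 1.00 without C_liver 1 and without C_liver 2. Without C_liver 3, its lowest library, the log2 fold change was 0.60 (unadjusted P = 0.053 in the same test). With total count scaling the unadjusted P was 0.088 in that test. The remaining IRS2 rows were under the FPKM minimum, and irs2 had 143, 164 and 127 counts in T_liver against 145, 96 and 148 counts in C_liver. With all 4 IRS2 rows summed, the log2 fold change was 0.98 (SE 0.32). IRS1 did not share this pattern. Its only tested row, LOC113654716, had 20.5, 30.4 and 58.8 CPM in T_liver, against 30.0, 58.5 and 50.8 CPM in C_liver (-0.34, SE 0.44), and the groups overlapped.

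**Figure D3:**
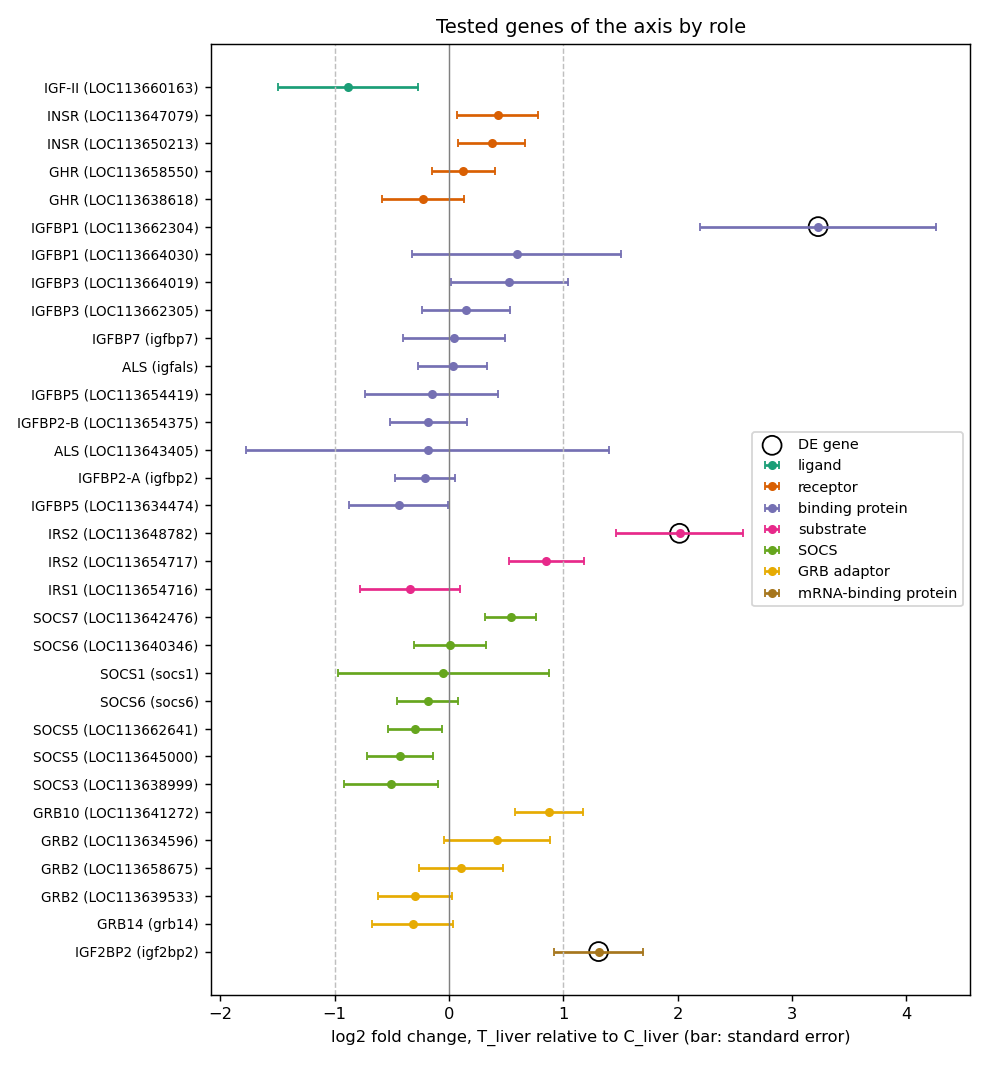
log2 fold change of T_liver relative to C_liver (x axis) for the 32 tested genes, grouped by role (y axis). Bars are standard errors, dashed lines mark 1 and -1, and rings mark the 3 DE genes. IGFBP1 at 3.23, IRS2 at 2.02 and IGF2BP2 at 1.31 lie beyond the upper line, no gene lies beyond the lower one, and 22 of 32 lie within 0.5 of 0.

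SOCS proteins are feedback inhibitors that bind activated cytokine and insulin receptors or their kinases. Of the 7 tested SOCS genes none was a DE gene, and 5 had negative log2 fold changes. SOCS7 (LOC113642476), which in mammals binds insulin receptor substrates, had 27.1, 20.1 and 25.1 CPM in T_liver, against 15.2, 18.3 and 16.3 CPM in C_liver. In these TMM-scaled values the groups did not overlap, although T_liver 2 was close to C_liver 2. In FPKM T_liver 2 (6.94) lay below C_liver 2 (7.30), so there the groups overlapped. The log2 fold change was 0.54 (SE 0.22, unadjusted P = 0.045, 0.676 after adjustment, edgeR's quasi-likelihood test). With total count scaling the unadjusted P was 0.098 in the same test. The other 6 tested SOCS genes overlapped between groups, with log2 fold changes between -0.51 for SOCS3 (LOC113638999) and 0.01 for SOCS6 (LOC113640346). The 2 SOCS5 genes were at -0.43 (LOC113645000) and -0.30 (LOC113662641), and socs6 was at -0.19. SOCS1 (socs1) varied 13.2-fold between its highest and lowest library, with 6.72, 5.03 and 0.693 CPM in T_liver and 1.47, 9.14 and 2.24 CPM in C_liver. SOCS2 (LOC113651830), a known growth hormone target in mammals, had only 32, 15 and 12 counts in T_liver and 0, 4 and 17 counts in C_liver, and SOCS4 (LOC113651284) had none.

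GRB10, an adaptor that binds the insulin receptor and inhibits its kinase, separated between the diets in TMM-scaled CPM without reaching the fold of a DE gene. LOC113641272 (NW_020848394.1, 874203 to 919727, plus strand) had 37.0, 58.9 and 62.3 CPM in T_liver, against 32.7, 32.4 and 21.1 CPM in C_liver. In these values all 3 T_liver libraries were above all C_liver libraries, T_liver 1 by little. In FPKM T_liver 1 (6.13) lay below C_liver 1 (6.34), so there the groups overlapped. The log2 fold change was 0.87 (SE 0.30, unadjusted P = 0.021, 0.676 after adjustment, edgeR's quasi-likelihood test), and without T_liver 1 it was a DE gene at 1.09. Without C_liver 3 the log2 fold change was 0.70. With total count scaling the unadjusted P was 0.058 in the same test. GRB14 (grb14), which acts on the receptor in the same way, had a log2 fold change of -0.32 (SE 0.36), with levels of 24.3 to 42.0 CPM in T_liver and 29.0 to 62.6 CPM in C_liver. The 3 rows described as GRB2, the adaptor that links receptors to Ras signalling, had log2 fold changes of -0.30 (LOC113639533), 0.10 (LOC113658675) and 0.42 (LOC113634596), and all overlapped between groups. LOC113634596 has another KEGG orthology entry (K07366) than LOC113639533 and LOC113658675 (K04364).

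The wording of the condition also selected IGF2 mRNA-binding proteins, which bind IGF2 transcripts and other mRNAs and are no part of the receptor cascade. igf2bp2 was the only one tested. It had 6.33, 3.61 and 8.36 CPM in T_liver, against 2.28, 2.94 and 2.16 CPM in C_liver, without overlap and with T_liver 2 closest to C_liver. The log2 fold change was 1.31 (SE 0.39, unadjusted P = 0.011, 0.676 after adjustment, edgeR's quasi-likelihood test), and it stayed a DE gene when any single library was left out (1.01 to 1.59). Its mean level was low, at 1.41 FPKM. The mean was 2.02 FPKM in T_liver and 0.805 FPKM in C_liver, so igf2bp2 reached the FPKM minimum only through the group where it was higher. Pancreatic markers (summed level 362 to 1130 CPM in T_liver and 75.5 to 301 CPM in C_liver) separated the groups in the same direction as igf2bp2 and the IRS2, GRB10 and SOCS7 genes named above. These separations were in TMM-scaled CPM, and the part of the markers in them was not tested.

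**Figure D4:**
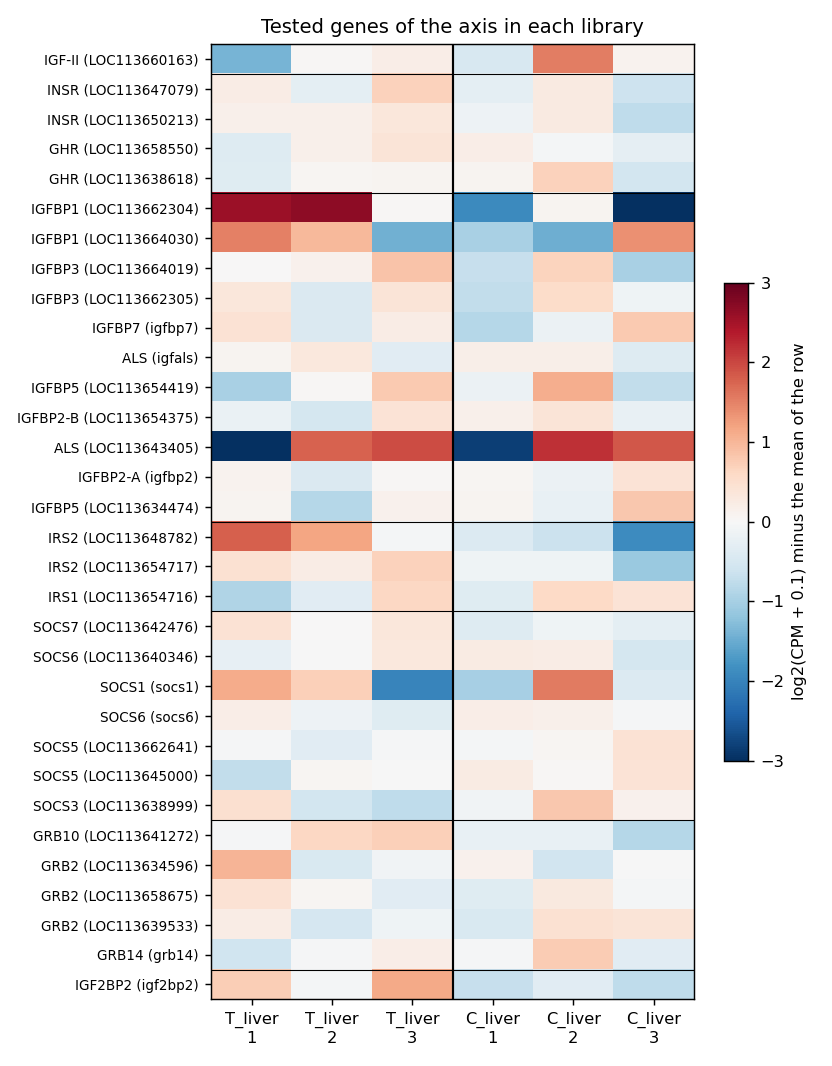
Level of the 32 tested genes (rows, grouped by role and ordered by fold change) in the 6 libraries (columns, T_liver left of C_liver), as log2(CPM + 0.1) minus the mean of the row, with colours limited at 3 and -3. T_liver 1 and 2 are dark red in the upper IGFBP1 row and a lighter red in IRS2 LOC113648782. C_liver 3 is dark blue in the upper IGFBP1 row. Replicate 1 of both groups is dark blue in the second acid labile subunit row, and most other rows are pale.

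Replicates spread somewhat more in these genes than elsewhere, with a median within-group SD of 0.473 on the log2(CPM + 0.1) scale for the 32 genes and 0.396 for all tested genes. The highest level of a gene fell in T_liver 3 for 10 genes and in C_liver 2 for 9, and C_liver 1 was the highest for 0. The same was not counted over all tested genes, so these numbers are not read as a result about the 32 genes. Their median level was 6.13 FPKM, against 4.58 FPKM for all tested genes. The 17 genes with counts under the FPKM minimum gave 0 DE genes in the fit without a minimum. Beside the ligand and receptor rows, irs2 and SOCS2 described above, they were irs1, LOC113647569 (IRS2), LOC113640327 (SOCS1), LOC113639654 (SOCS3), LOC113637834 (SOCS5), socs7, grb10, LOC113659080 (GRB10), igf2bp1, LOC113636024 (IGF2BP2) and LOC113649625 (IGF2BP3). Of these, igf2bp1 had the most reads, with 321, 134 and 359 counts in T_liver and 280, 318 and 620 counts in C_liver. The 5 genes with no count were the IGFBP5, IGFBP6 and SOCS4 rows given above and LOC113641485 (IRS1).

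Genes downstream of the receptors were counted in lists. Of all tested genes 1.49% were DE genes higher and 1.61% DE genes lower in T_liver, and in lists this short a count of 0 or 1 is not read as a result. In the list of growth hormone receptor signalling genes, 0 of 11 tested genes were DE genes. STAT5, the factor between receptor and IGF-I, had 2 rows, and STAT5.2 (LOC113662164) had 11.6, 9.38 and 7.23 CPM in T_liver, against 15.1, 11.7 and 17.8 CPM in C_liver. All T_liver libraries were below all C_liver libraries, the closest pair by little, and the log2 fold change was -0.66 (SE 0.28, unadjusted P = 0.047, 0.676 after adjustment, edgeR's quasi-likelihood test). STAT5.1 (LOC113652201) was at -0.21 (SE 0.34). In the PI3K and Akt list 0 of 17 were DE genes, with a median log2 fold change of 0.32, and the kinase gene akt1 was at 0.36 (SE 0.26). In the mTORC1 and translation control list 0 of 21 were DE genes and mtor was at 0.0026 (SE 0.23). The 4 tested IGFBP proteases and inhibitors held 0 DE genes.

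Of 15 tested FoxO factors and insulin-responsive liver enzymes, 7 had positive and 8 negative log2 fold changes, with a median of -0.06. Only 1 was a DE gene, higher in T_liver. This was g6pc, glucose-6-phosphatase, the enzyme that releases glucose from hepatocytes, with 1036, 1193 and 970 CPM in T_liver, against 146, 597 and 268 CPM in C_liver. T_liver libraries lay close together and above all C_liver libraries. The log2 fold change was 1.66 (SE 0.51, unadjusted P = 0.013, 0.676 after adjustment, edgeR's quasi-likelihood test), and it was 2.37 without C_liver 2. The adjacent glucose-6-phosphatase-like gene LOC113653608 had 578, 650 and 693 CPM in T_liver, against 335, 556 and 131 CPM in C_liver (0.91, SE 0.49). In these TMM-scaled values the groups were separated, with T_liver 1 close to C_liver 2. The gene was not a DE gene, except without C_liver 2 (1.46), and its log2 fold change was 0.53 without C_liver 3. The sestrin gene sesn1, a stress-induced inhibitor of mTORC1, was also separated (0.91, SE 0.29), and was a DE gene at 1.12 without T_liver 2. Without T_liver 1 the log2 fold change of sesn1 was 0.68. As with igf2bp2, the pancreatic markers (362 to 1130 CPM in T_liver and 75.5 to 301 CPM in C_liver) separated the groups in the same direction as g6pc, LOC113653608 and sesn1, and their part was not tested. The factor foxo1 itself was at -0.07 (SE 0.33). Glucokinase (gck), which insulin induces in mammalian liver, varied widely within both groups, with 29.2, 2.59 and 358 CPM in T_liver and 1476, 104 and 19.7 CPM in C_liver (-2.04, SE 1.86, and 1.07 without C_liver 1).

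Among hormones and hormone receptors next to the axis, 1 of 5 tested genes was a DE gene, lower in T_liver. It was LOC113650679, described as somatostatin receptor type 2, a receptor for the peptide that restrains growth hormone and insulin secretion. It had 51.8, 49.7 and 23.4 CPM in T_liver, against 100, 93.6 and 88.6 CPM in C_liver. The 3 C_liver libraries were close together and all T_liver libraries lay well below them. The log2 fold change was -1.18 (SE 0.34, unadjusted P = 0.010, 0.676 after adjustment, edgeR's quasi-likelihood test), and without T_liver 3 it was -0.89, no longer a DE gene. The 2 insulin rows, LOC113650955 and LOC113650961, had counts in T_liver 1 alone (30 and 31) and 0 in the other 5 libraries.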

How the data were processed

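The authors aligned filtered reads with HISAT to the T. fulvidraco genome and deposited 1 table with a raw read count and an FPKM value per gene and library. Their processing notes name HISAT2 2.0, StringTie 1.3.0 and Bowtie 0.12.2. Whether StringTie made the counts, and whether strand was used, is not given in the sources used here. Scaffold coordinates are those of the table, whose genome build is not stated clearly. Descriptions are mostly matches in other fish, and reads of near-identical copies could be split between rows. Counts were scaled by TMM and compared by the quasi-likelihood test of edgeR 4.0.16 in R 4.3.3 (no covariate), after requiring a mean deposited FPKM of 1, and P values were adjusted over all 11521 genes by the Benjamini-Hochberg method. Standard errors were derived from the F statistics. Every tested gene of the axis is named, with values per library for ligands, receptors, substrates, binding proteins, DE genes and separated genes. Members, gene lists and marker lists were chosen with earlier results of these data known. The list patterns were corrected after a first run where they had matched other products. Alternatives used DESeq2 1.42.0, limma 3.58.1 (voom, or log2 of FPKM plus 1 or 0.1), other scalings and minimums, a replicate block, omission of single libraries and, added after seeing the data, summed rows per product. The code was tested on simulated data.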

Additional observations from a re-analysis of the deposited data

How the results depend on the processing

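The 3 DE genes of the 32 include igf2bp2, which is no part of the receptor cascade. All 3 were also DE genes under RLE, total count and upper quartile scaling, no minimum, filterByExpr, DESeq2, edgeR's exact test, limma-voom, limma on log2(FPKM + 0.1) and robust dispersion. A minimum mean of 5 FPKM left 1, since the IRS2 gene and igf2bp2 were not tested there, limma on log2(FPKM + 1) gave 2 without igf2bp2 (0.69), and single omitted libraries gave 3 to 5 (5 without C_liver 2). With rows of 1 product summed, which was chosen after seeing the data, 2 products were DE genes, IGFBP1 (1.84) and IGF2BP2 (1.32). The IGF2BP2 sum includes LOC113636024, which is described as IGF2BP2 but has another KEGG orthology entry (K10755) than igf2bp2 (K17391). Over all genes the 358 DE genes became 774 without a minimum, 542 with filterByExpr, 175 at 5 FPKM, 190 with limma on log2(FPKM + 1) and 248 to 643 with single libraries omitted. Upper quartile scaling gave 143 higher and 239 lower genes (37.4% higher, against 48.0%). Deviations of same-numbered libraries from their group means correlated little over the tested genes (-0.09, 0.04 and -0.13). These 3 values cannot settle whether the libraries were paired by replicate number. A replicate block left 3 DE genes of the 32 and 329 in all.

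Directions turned in mostly small fold changes, but also in gck (-2.04). With single libraries omitted, log2 fold changes ran from -0.14 to 0.69 for LOC113634596, -0.47 to 0.14 for LOC113638618, -0.20 to 0.14 for LOC113640346, -0.75 to 0.42 for LOC113643405, -0.49 to 0.029 for LOC113654375, -0.65 to 0.55 for LOC113654419, -0.055 to 0.33 for LOC113658550, -0.11 to 0.30 for LOC113658675, -0.11 to 0.55 for LOC113662305, -0.52 to 0.071 for grb14, -0.13 to 0.19 for igfals, -0.27 to 0.60 for igfbp7, -0.58 to 1.16 for socs1, -5.07 to 1.07 for gck, -0.23 to 0.25 for foxo1 and -0.15 to 0.092 for mtor. Total count scaling gave -0.030 for igfals and -0.019 for LOC113640346, and upper quartile scaling -0.028 for igfals, -0.031 for igfbp7, -0.058 for LOC113640346 and -0.061 for mtor. Without a minimum LOC113640346 was at -0.0017 and mtor at -0.0065, filterByExpr gave -0.0035 for mtor, and limma on log2(FPKM + 1) gave -0.0032 for LOC113640346. The cause of these turns was not tested.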
